A study of Mus musculus with 4 samples.

Results

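Genes that build the junctions between endothelial cells were measured in single cells of the embryonic mouse ventricle. The 9 genes, Cldn5, Cdh5, Pecam1, Esam, Tjp1, Ocln, Jam2, Jam3 and F11r, were found by their symbols among the 32285 genes of the count matrices, and they are called the junction genes here. The study made droplet libraries of whole ventricles at E14.5 in which the transcription factor gene Ets1 was deleted or kept in the endothelium. Each library pooled 3 ventricles, and the molecules were counted as UMIs (unique molecular identifiers) from the ends of transcripts.

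The controls were Tie2Cre; Ets1 fl/+ embryos (2 libraries) and the endothelial knockouts, called eKO, were Tie2Cre; Ets1 fl/fl embryos (2 libraries), on a C57BL/6 background, with no treatment in either group. Controls carried the Cre and 1 floxed allele as well, so no library was free of either. Both sexes were used and the sex of each embryo was not recorded. Tie2Cre recombines in endothelium, in the cushion mesenchyme that arises from endocardium and in blood cells. The labels put all 4 libraries in 1 batch. They say nothing more about the pools than the number of ventricles, so the p-values for eKO against control measure the spread between libraries. Those for classes against each other come from fits with library as a term, and measure the spread of class differences within libraries.

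Endothelial cells hold to each other through adherens junctions and tight junctions. VE-cadherin, the product of Cdh5, binds its like on the neighbouring cell, claudins and occludin seal the space between cells, and scaffold proteins such as ZO-1 tie the tight junction to actin. Coronary capillaries and the endocardium that lines the heart chambers are both endothelium, and factors of the ETS family bind the control regions of many endothelial genes, Cdh5 among them.

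The libraries held 12641 and 7949 cell barcodes in control replicates 1 and 2, and 10010 and 14951 in eKO replicates 1 and 2. In that order, which all lists of 4 values follow, the total UMIs were 124140739, 76931208, 95131419 and 102872196, and the median UMIs per barcode were 8630, 8369, 8222 and 5632. The eKO replicate 2 library had the most barcodes and the lowest median depth. Pairs of libraries shared 19 to 47 barcode sequences.

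Cells were gated by marker genes, and no junction gene and no gene of the wider junction list described further on was a marker. The coronary endothelium gate held 391, 209, 327 and 580 cells with median depths of 11639, 12001, 9766 and 6156 UMIs. The mural endocardium gate held 1000, 723, 887 and 1524 cells, and the valve endocardium gate held 182, 160, 188 and 188. Outside the endothelium, the 4 libraries together gave 19428 cardiomyocytes, 7295 mesenchymal cells, 793 epicardial cells and 771 immune cells. UMIs were summed over the cells of a gate in each library, and each level is in counts-per-million (CPM) of that sum.

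The gates held the markers they were drawn on. The list of 8 coronary genes summed to 8322, 6896, 8749 and 9748 CPM in the coronary gate, with Fabp4 the most abundant, and to between 88.7 and 156 CPM in mural endocardium. The 4 genes of the mural endocardium list, Npr3 the most abundant, summed to 1777, 1696, 1585 and 1454 CPM in their own gate and to 53.7, 35.1, 84.6 and 91.1 CPM in the coronary gate. The 5 genes of the valve list, Wnt4 the most abundant, summed to 1662, 1443, 1653 and 1776 CPM in the valve gate and to between 180.0 and 219 CPM in mural endocardium. The cardiomyocyte list summed to 755, 584, 772 and 1016 CPM in the coronary gate, against 41363 to 44424 CPM in cardiomyocytes. The epicardial list was at 0.37, 0, 1.8 and 3.16 CPM in the coronary gate. The mesenchymal list summed to 122, 133, 154 and 112 CPM in the coronary gate and the immune list to 29.3, 23.7, 16.7 and 18.3 CPM in the coronary gate. In clusters made without the junction genes, 87.1% of the coronary, 96.8% of the mural and 77.6% of the valve cells fell in a cluster of the same class.

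Ets1, the deleted gene, stood at 366, 333, 170 and 127 CPM in coronary endothelium, at 281, 257, 120 and 92.9 CPM in mural endocardium and at 246, 249, 101 and 102 CPM in valve endocardium. In each of the 3 classes both eKO libraries lay below both controls. In edgeR quasi-likelihood fits, with p adjusted over all genes tested by the Benjamini-Hochberg method, Ets1 fell by 1.16 in coronary endothelium (log2, SE 0.167, adjusted p 0.0045), by 1.28 in mural endocardium (SE 0.143, adjusted p 0.00138) and by 1.24 in valve endocardium (SE 0.146, adjusted p 0.00852). The coronary value lost its call without control replicate 1 (-1.09, adjusted p 0.388) and without control replicate 2 (-1.23, adjusted p 0.055). Cardiomyocytes had Ets1 at 7.57, 7.41, 9.37 and 10.2 CPM, both eKO libraries above both controls, with a log2 change of 0.50 (p 0.00572, adjusted p 0.456). Mesenchymal cells had it at 102, 86.3, 64.8 and 60.7 CPM, both eKO libraries below both controls, with a log2 change of -0.49 (p 0.00676, adjusted p 0.314). Immune cells, with 60 UMIs of it, had 14.7, 14.2, 14.1 and 12.9 CPM and a log2 change of -0.07 (p 0.871), and epicardial cells, with 76 UMIs, had a log2 change of 0.38 (p 0.286). The sources used here do not say which exons are floxed, so counts from the transcript ends may lie outside the deleted part.

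The levels of the junction genes were first compared between cell classes, whatever the genotype. Cdh5, the adherens junction cadherin, had means of 642 ± 84.4 CPM in coronary endothelium, 372 ± 55.9 in mural endocardium and 245 ± 37.7 in valve endocardium (SD, n = 4 libraries), with no overlap between neighbours in that order. Its mean in the other 4 classes was between 1.51 and 5.21 CPM. Cdh5 was thus a gene of all 3 endothelial classes, with coronary endothelium above the rest in 4 of 4 libraries. Its log2 level in mural endocardium against coronary endothelium was -0.97 (SE 0.057, adjusted p 9.74e-09), and in valve endocardium against coronary endothelium -1.57 (SE 0.0606, adjusted p 5.42e-12).

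Cldn5, the claudin of endothelial tight junctions, differed far more between the classes. It stood at 356, 286, 269 and 213 CPM in coronary endothelium, at 3.11, 8.23, 4.22 and 3.41 CPM in mural endocardium and at 67.3, 122, 52.0 and 67.5 CPM in valve endocardium. No library's value in 1 class reached the range of another, and the ratio of coronary to mural endocardium within a library ran from 34.7 to 114. The log2 level was -6.11 in mural endocardium against coronary endothelium (SE 0.165, adjusted p 1.01e-11). In valve endocardium it was -2.08 against coronary endothelium (SE 0.149, adjusted p 7.99e-09) and 3.99 against mural endocardium (SE 0.156, adjusted p 2.28e-10). The mean in the classes outside the endothelium was between 0.137 and 0.456 CPM.

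Cells with fewer than 2000 UMIs, 13, 7, 22 and 33 of the coronary cells, were left out of the shares. Counted in the other cells, each reduced to an expected 2000 UMIs, the share of coronary cells with a UMI of Cldn5 was 48.4%, 43.5%, 38.6% and 34.0%. The exact binomial 95% intervals of these shares ran from 43.3% to 53.6%, 36.6% to 50.7%, 33.2% to 44.4% and 30.0% to 38.1%. In mural endocardium the share was 0.635%, 1.32%, 0.884% and 0.5%, against 0.119%, 0.0511%, 0.0146% and 0.113% in cardiomyocytes, a class that should lack the gene and in which a UMI may come from free RNA. The mural share was above the cardiomyocyte share in every library, at median depths of 4544 to 7503 UMIs in mural cells and 8118 to 13092 in cardiomyocytes before the reduction. In valve endocardium 8.79%, 10.6%, 5.78% and 6.99% of cells held a UMI. For Cdh5 the shares were 74.9%, 71.8%, 69.3% and 65.5% in coronary endothelium and 56.5%, 56.4%, 46.5% and 47.5% in mural endocardium, against 0.146% to 0.46% in cardiomyocytes.

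Ocln, the gene of occludin, was near the limit of the data, with 44 UMIs in coronary endothelium, 226 in mural endocardium and 26 in valve endocardium over the 4 libraries. Its means were 7.41 ± 0.968 CPM in mural endocardium, 4.59 ± 1.52 in valve endocardium, 4.47 ± 1.74 in epicardial cells and 2.4 ± 1.048 in coronary endothelium (SD, n = 4), and each overlapped the next in range. It was the one junction gene that passed the test as higher in mural than in coronary endothelium, by 1.38 on the log2 scale (SE 0.246, adjusted p 0.000288) and in 4 of 4 libraries. The share of cells with a UMI at 2000 UMIs was 1.27% to 1.67% in mural endocardium and 0.0201% to 0.0558% in cardiomyocytes.

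Tjp1 codes for ZO-1, a scaffold of tight and adherens junctions in many tissues. It had means of 343 ± 50.1 CPM in coronary endothelium, 213 ± 21.0 in mural endocardium and 190 ± 36.6 in valve endocardium (SD, n = 4), the last pair overlapping. Epicardial cells followed at 125 ± 19.0, then mesenchymal cells at 94.9 ± 6.73 and cardiomyocytes at 92.3 ± 11.8, which overlapped, and immune cells at 12.0 ± 7.52. Tjp1 was therefore measured well outside the endothelium too. Its log2 level was -0.86 in mural against coronary endothelium (SE 0.0571, adjusted p 3.28e-08) and -1.047 in valve endocardium against coronary endothelium (SE 0.0732, adjusted p 6.21e-09).

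Pecam1 and Esam code for adhesion receptors of the immunoglobulin family at endothelial contacts. Pecam1 differed less between the endothelial classes than Cdh5 or Esam, with means of 545 ± 33.5, 449 ± 36.9 and 417 ± 41.9 CPM in coronary, mural and valve cells (SD, n = 4), the last pair overlapping, and 25.9 ± 1.54 in immune cells. Its log2 level was -0.46 in mural against coronary endothelium (SE 0.0526, adjusted p 6.14e-06). Esam had 3 separate levels in the same order, 323 ± 13.1, 158 ± 8.31 and 84.8 ± 7.04 CPM, and epicardial cells followed at 14.8 ± 3.18. Its log2 level was -1.21 in mural against coronary endothelium (SE 0.0556, adjusted p 8.83e-10) and -2.10 in valve endocardium against coronary endothelium (SE 0.0771, adjusted p 3.25e-12).

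F11r, Jam2 and Jam3 code for the junctional adhesion molecules A, B and C, and each had its own order of classes. Jam2 was highest in valve endocardium, at 104, 91.0, 99.5 and 85.4 CPM there, against 40.4, 27.9, 44.5 and 37.3 CPM in coronary endothelium and 26.8, 23.3, 24.3 and 18.2 CPM in mural endocardium. The 3 ranges did not overlap. Its log2 level in valve endocardium was 1.16 against coronary endothelium (SE 0.108, adjusted p 1.88e-07) and 1.99 against mural endocardium (SE 0.0987, adjusted p 2.13e-09). The share of cells with a UMI of Jam2 at 2000 UMIs was 14.7% to 17.5% in valve endocardium and 0.232% to 0.384% in cardiomyocytes.

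Jam3 had its highest means outside the endothelium. Its means were 60.4 ± 13.0 CPM in epicardial cells and 51.4 ± 4.16 in mesenchymal cells (SD, n = 4), which overlapped, then 19.5 ± 3.13 in cardiomyocytes, 17.2 ± 2.2 in valve, 15.7 ± 1.59 in mural and 15.2 ± 1.71 in coronary cells, each overlapping the next. F11r was shared between endothelium and epicardium, with means of 124 ± 15.1 CPM in coronary endothelium, 121 ± 10.9 in valve endocardium, 116 ± 14.3 in epicardial cells and 88.8 ± 12.3 in mural endocardium, each overlapping the next. Immune cells followed at 40.8 ± 6.15 CPM. Within each library F11r was higher in coronary than in mural endocardium, with a log2 level of -0.66 for mural against coronary cells (SE 0.0578, adjusted p 4.91e-07).

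**Figure D1:**
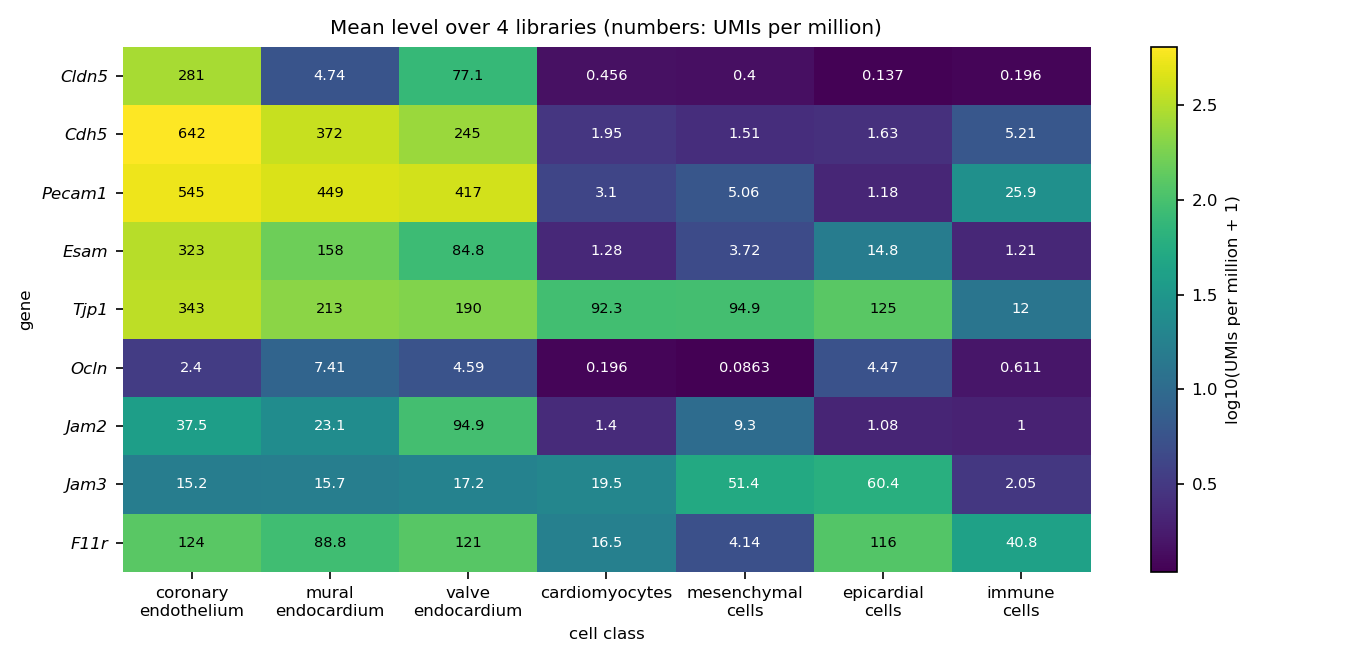
Mean level of each junction gene (vertical axis) in each cell class (horizontal axis) over 4 libraries, with the colour as log10 of CPM plus 1 and the numbers in CPM. Cldn5 runs from 281 in coronary endothelium to 4.74 in mural endocardium, and Jam2 has its highest mean, 94.9, in valve endocardium.

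Between mural and coronary endothelium, 8 of the 9 junction genes differed in level, to be read against 65.8% of all 13038 genes tested. In that contrast 1 was higher in mural cells, Ocln, and 7 were lower, while 4331 genes were higher and 4248 lower among all. Valve and coronary endothelium differed in 7 of the 9 (53.1% of 11692 genes), and valve and mural endocardium in 7 of the 9 (31.2% of 12766 genes). Scaling by total counts in place of TMM moved the median log2 level of all genes from 0.04 to 0.22 for mural against coronary endothelium, and from 0.01 to 0.19 for valve against coronary endothelium. The split of all genes in the first of these became 5745 higher and 3253 lower, and in the second it went from 3093 higher and 3119 lower to 4249 and 2174. For valve against mural endocardium it went from 2028 higher and 1955 lower to 2312 and 1678. It also moved the median log2 change of all genes in cardiomyocytes, eKO against control, from 0.01 to -0.10.

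Several of these level differences were small and rested on the processing. F11r in valve against coronary endothelium had a log2 level of -0.21 (SE 0.0842, adjusted p 0.0427), which went to -0.03 with total count scaling (adjusted p 0.807). It lost its call without control replicate 1 (-0.22, adjusted p 0.0935), control replicate 2 (-0.17, adjusted p 0.171) or eKO replicate 2 (-0.20, adjusted p 0.0966), and with classes from clusters (-0.18, adjusted p 0.0752). Tjp1 in valve against mural endocardium, at -0.22 (SE 0.0758, adjusted p 0.042), lost it without control replicate 1 (-0.24, adjusted p 0.0609), eKO replicate 1 (-0.17, adjusted p 0.198) or eKO replicate 2 (-0.19, adjusted p 0.0992). Ocln in valve against mural endocardium, at -0.76 (SE 0.274, adjusted p 0.0486), was past the threshold in none of the 4 fits that left out 1 library: -0.65 without control replicate 1 (adjusted p 0.183), -0.70 without control replicate 2 (adjusted p 0.147), -0.92 without eKO replicate 1 (adjusted p 0.0767) and -0.82 without eKO replicate 2 (adjusted p 0.0687). Total count scaling took both calls away as well, with -0.17 for Tjp1 (adjusted p 0.092) and -0.72 for Ocln (adjusted p 0.0624), and classes from clusters took that of Ocln (-0.68, adjusted p 0.1). Pecam1 in valve against mural endocardium, at -0.15 (adjusted p 0.0655), was not past the threshold, but was with no filter on low counts (-0.20, adjusted p 0.0112) and with classes from clusters (-0.23, adjusted p 0.014). Jam3 did not pass the threshold in any of the 3 pairs of classes, and its log2 level in mural against coronary endothelium changed sign with total count scaling, from -0.12 to 0.06, and with classes from clusters, to 0.03. In valve against coronary endothelium it was -0.03, and positive in 4 of the 7 alternatives.

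The comparison of eKO with control asked whether the loss of Ets1 came with other junction gene levels inside each class. In coronary endothelium 144 of 11401 genes passed the threshold (1.26%; adjusted p at most 0.05), 88 up and 56 down, and none of the 9 junction genes was among them. At an unadjusted p under 0.05 the count was 0 of 9 as well, against 12.9% of all genes, and DESeq2 called 0. With 2 libraries a group small changes can be missed, so here and in the other classes a gene that was not called may still have changed. The number of genes called rested on single libraries: it was 2 without control replicate 1, 44 without control replicate 2, 798 without eKO replicate 1 and 350 without eKO replicate 2. Scaling by total counts changed the split from 88 up and 56 down to 75 up and 80 down.

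Cldn5 came closest to the threshold in coronary endothelium. Both eKO libraries, at 269 and 213 CPM, lay below both controls, at 356 and 286 CPM, though eKO replicate 1 and control replicate 2 were close. The log2 change was -0.34 (SE 0.169, 95% interval -0.71 to 0.02, p 0.0629, adjusted p 0.418). Without eKO replicate 1 it was past the threshold at -0.50 (adjusted p 0.0357). It was not past it without control replicate 1 (-0.18, adjusted p 0.861), control replicate 2 (-0.50) or eKO replicate 2 (-0.20, adjusted p 0.703). The arterial genes Gja5 and Gja4 summed to 165, 151, 117 and 136 CPM in coronary endothelium. Coronary cells with a UMI of either had Cldn5 at 386, 312, 329.8 and 256 CPM, and the remaining coronary cells had it at 340.1, 273, 233 and 195 CPM. Cells with arterial UMIs were thus higher in each library. Among them the groups overlapped, while in the remaining cells both eKO libraries lay below both controls.

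Cdh5 stood at 737, 677, 615 and 540.5 CPM in coronary endothelium, with both eKO libraries below both controls. Its log2 change was -0.22 (SE 0.157, 95% interval -0.56 to 0.12, adjusted p 0.591). Tjp1, at 387, 371, 340.5 and 274 CPM, had a log2 change of -0.23 (SE 0.157, 95% interval -0.57 to 0.11, adjusted p 0.572), and again the groups did not overlap. Without eKO replicate 1 the change of Tjp1 was -0.38 and without eKO replicate 2 -0.09, and that of Cdh5 was -0.30 and -0.14. F11r was the tightest of these, at 136, 138, 109.7 and 112 CPM, so that the eKO libraries lay below the controls. Its log2 change was -0.23 (SE 0.138, 95% interval -0.52 to 0.07, adjusted p 0.52). Pecam1 stood at 564, 569.6, 549 and 496 CPM, also without overlap, with a log2 change of -0.04 (95% interval -0.37 to 0.29). Changes of F11r and Tjp1 of similar size in epicardial cells are given further on. A difference in change between coronary and epicardial cells was not tested.

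Esam, Ocln, Jam2 and Jam3 overlapped between the groups in coronary endothelium. Esam, at 311, 337, 313 and 332 CPM, had a log2 change of 0.07 (95% interval -0.25 to 0.39), which went to -0.01 with total count scaling. Jam2 had a log2 change of 0.30 (95% interval -0.11 to 0.71), Jam3 of -0.07 (95% interval -0.53 to 0.40) and Ocln of 0.47 (95% interval -0.67 to 1.61). With 1 library left out, Jam2 ran from 0.08 to 0.62, Jam3 from -0.22 to 0.09, Ocln from 0.03 to 1.61 and Esam from 0.01 to 0.13, and with double the endothelial minimum Jam2 was -0.23 and Jam3 0.41. In all, 5 of the 9 junction genes had groups that did not overlap in coronary endothelium, beside 45.3% of all genes tested there, and in all 5 the eKO libraries were the lower, as in 30.3% of all genes. Such a lack of overlap was thus common with 2 libraries a group. In the coronary gate the cardiomyocyte list and the mural endocardium list, given above, were both higher in both eKO libraries. The part of the cardiomyocyte list in these values was not tested. Of the 9, 6 had negative changes, beside 48.3% of all genes tested. The median log2 change was -0.07 over the 9 and 0.01 over all genes tested.

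**Figure D2:**
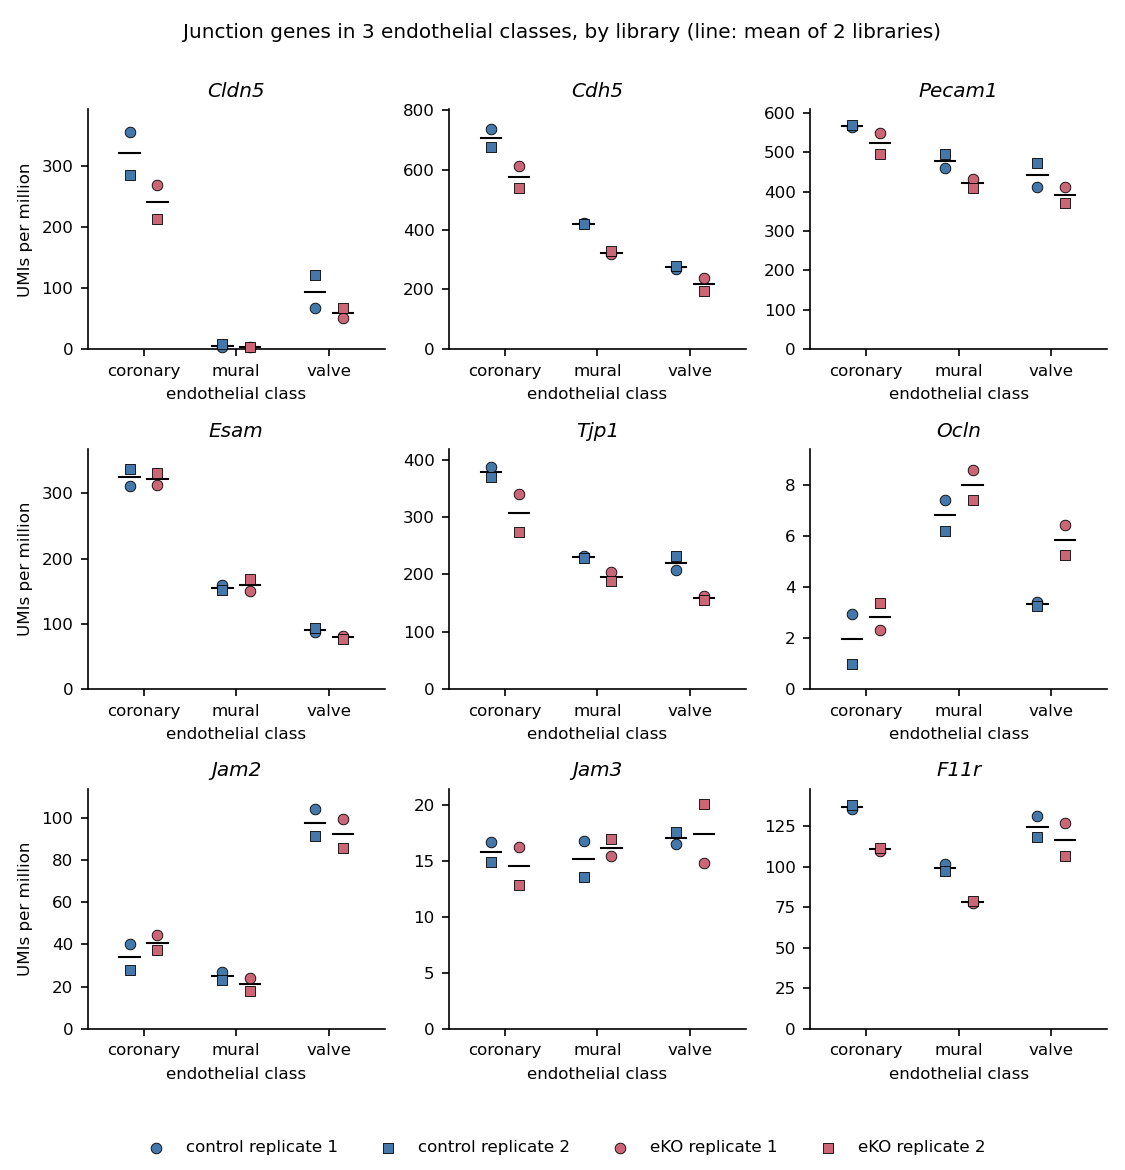
Level of each junction gene in CPM (vertical axis) in coronary, mural and valve cells (horizontal axis), 1 point for each library, controls in blue, eKO in red, circles for replicate 1, squares for replicate 2, and a line at the mean of a group. Cdh5 in mural endocardium stands at 422 and 419 in the controls and at 319 and 328 in the eKO libraries.

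In mural endocardium 393 of 13011 genes passed the threshold (3.02%), 184 up and 209 down, and total count scaling made this 165 up and 334 down. None of the 9 junction genes was called by edgeR and none by DESeq2, and 2 of the 9 had an unadjusted p under 0.05, against 21.5% of all genes. The number of genes called was 225 without control replicate 1 and 1018 without eKO replicate 1. Cdh5 was 1 of those 2 genes, with 422, 419, 319 and 328 CPM. Both of its groups were tight and did not overlap, and the log2 change was -0.32 (SE 0.128, 95% interval -0.60 to -0.04, p 0.0302, adjusted p 0.185). F11r was the other, at 102, 97.2, 77.9 and 78.6 CPM, again without overlap, with a log2 change of -0.29 (SE 0.119, 95% interval -0.55 to -0.02, p 0.0355, adjusted p 0.201).

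Tjp1 in mural endocardium stood at 232, 229, 204 and 188 CPM, with a log2 change of -0.18 (95% interval -0.45 to 0.09). Pecam1 stood at 459.5, 496, 432 and 410.3 CPM, with a log2 change of -0.13 (95% interval -0.42 to 0.17). In both the eKO libraries lay below the controls. Cldn5 there rested on 138 UMIs, and control replicate 2, at 8.23 CPM, stood above the other libraries. Its log2 change was -0.48 (95% interval -1.43 to 0.47), and 0.38 without control replicate 2. Ocln stood at 7.43, 6.21, 8.58 and 7.43 CPM, and its groups met without overlap, with a log2 change of 0.28 (95% interval -0.25 to 0.81). Esam, Jam2 and Jam3 overlapped between the groups, with log2 changes of 0.09, -0.19 and 0.15. With 1 library left out, Pecam1 ran from -0.18 to -0.03, Ocln from 0.19 to 0.41, Esam from 0.00 to 0.19, Jam2 from -0.39 to -0.01 and Jam3 from 0.04 to 0.31. The mesenchymal list, all 11 genes detected, summed to 864, 759, 1354 and 1362 CPM in the mural gate, higher in both eKO libraries, with Col3a1, Gpc6 or Ptn the most abundant, and its part in the mural values was not tested. The cycling genes Top2a and Mki67 summed to 209, 327, 345 and 425 CPM in mural endocardium, and 0 junction genes passed in the mural cells without a UMI of them. Of the 9 genes, 5 had groups that did not overlap, beside 53.2% of all genes tested. Of these, 4 were lower in the eKO libraries and 1, Ocln, was higher; of all genes tested, 33.1% were lower without overlap and 20% higher. The median log2 change of the 9 was -0.18, against 0.00 over all genes.

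In valve endocardium 39 of 10268 genes passed the threshold (0.38%), 20 up and 19 down, or 22 up and 30 down with total count scaling, and none of the 8 junction genes tested was among them. Ocln did not pass the filter on low counts. DESeq2 called 0 of them, and 2 had an unadjusted p under 0.05, against 12.4% of all genes. The number of genes called was 159 without control replicate 1, 81 without control replicate 2, 295 without eKO replicate 1 and 220 without eKO replicate 2. Tjp1 stood at 208, 232, 162 and 156 CPM, both eKO libraries below both controls, and its log2 change was -0.42 (SE 0.145, 95% interval -0.74 to -0.10, p 0.0149, adjusted p 0.279). Cldn5, at 67.3, 122, 52.0 and 67.5 CPM, was highest in control replicate 2, and its groups overlapped. Its log2 change was -0.63 (SE 0.268, 95% interval -1.22 to -0.04, p 0.0381, adjusted p 0.379), and it rested on single libraries. Without control replicate 1 it was past the threshold at -1.0 (adjusted p 0.0097), without control replicate 2 it was -0.15 (adjusted p 0.95), without eKO replicate 1 -0.42 and without eKO replicate 2 -0.81. With double the endothelial minimum it was 0.39 (adjusted p 0.58).

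The other 6 genes fitted in valve endocardium had log2 changes between -0.28 and 0.04. Cdh5, at 268, 279.6, 239 and 195 CPM, had a log2 change of -0.28 (95% interval -0.61 to 0.05, adjusted p 0.476), and its groups did not overlap. With 1 library left out it ran from -0.43 to -0.16, and Pecam1 from -0.23 to -0.03. Pecam1, Esam, Jam2, Jam3 and F11r had log2 changes of -0.13, -0.14, -0.02, 0.04 and -0.04, with adjusted p between 0.780 and 0.987. Ocln, at 3.42, 3.25, 6.42 and 5.27 CPM, rested on 26 UMIs and was not fitted. Of the 8 genes tested, 4 had groups that did not overlap, all lower in the eKO libraries, beside 43.9% of all genes tested, 26.9% with the eKO libraries lower. Of the 8, 7 had negative changes, beside 48.9% of all genes tested, and the median was -0.13, against 0.01 over all genes. The 3 classes came from the same 4 libraries, so their changes are not independent of each other.

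**Figure D3:**
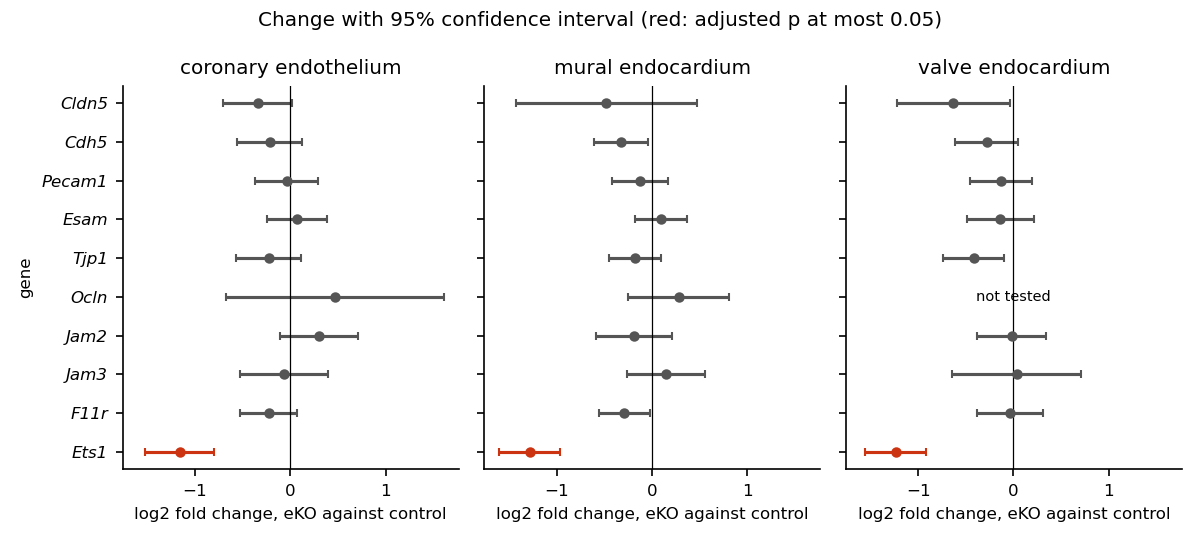
Log2 fold change of eKO against control (horizontal axis) for the 9 junction genes and Ets1 (vertical axis) in coronary endothelium, mural endocardium and valve endocardium, with points at the estimate, bars for the 95% confidence interval and red for an adjusted p at most 0.05. Ets1 is the only gene shown in red, at -1.16, -1.28 and -1.24, and the Cldn5 points stand at -0.34, -0.48 and -0.63.

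Whether the change differed between the classes was tested itself, with library as a term. None of the 9 junction genes passed for mural against coronary endothelium (1.49% of 13038 genes did), for valve against coronary endothelium (0.676% of 11692) or for valve against mural endocardium (0.76% of 12766), all by edgeR, with no second tool run. At an unadjusted p under 0.05 the counts were 1, 0 and 0, beside 12.1%, 8.36% and 9.31% of all genes. The 1 gene was Jam2 in mural against coronary endothelium, with a difference in log2 change of -0.48 (SE 0.181, p 0.0169, adjusted p 0.266). Cldn5 had a difference of -0.29 for valve against coronary endothelium (SE 0.288, adjusted p 0.863), which without control replicate 1 was past the threshold at -0.86 (adjusted p 0.00188). For Cdh5 the 3 differences were -0.08, -0.06 and 0.03, with 95% intervals of -0.28 to 0.13, -0.31 to 0.18 and -0.24 to 0.30.

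The junction genes were also compared outside the endothelium. In cardiomyocytes 0 of 16454 genes passed by edgeR (0%) and 25 by DESeq2, with 1767 at an unadjusted p under 0.05 by edgeR, and 0 of the 9 junction genes passed by edgeR or DESeq2 or had an unadjusted p under 0.05. Without eKO replicate 1, 3 of them were past the threshold: Cdh5 at 1.14 (adjusted p 0.00182), Esam at 1.25 (adjusted p 0.00317) and Pecam1 at 1.0 (adjusted p 0.00293). Their cardiomyocyte levels were low, with Pecam1 at 3.02, 2.33, 2.12 and 4.94 CPM. The endothelial marker list of 9 genes summed to 30.8, 26.9, 24.5 and 59.8 CPM in the same cells, with eKO replicate 2 the highest in both, and its part in the result was not tested. F11r in cardiomyocytes stood at 18.0, 17.4, 14.8 and 15.8 CPM, both eKO libraries below both controls, with a log2 change of -0.10. Tjp1 there overlapped between the groups, with a log2 change of -0.08.

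Among mesenchymal cells 4 of 14748 genes passed by edgeR (0.0271%) and 124 by DESeq2, and 0 of the 7 junction genes tested, by edgeR and by DESeq2, with 2 at an unadjusted p under 0.05, beside 10.4% of all genes. These were Jam2, at 10.4, 11.8, 7.94 and 7.08 CPM (log2 change -0.46, p 0.0319, adjusted p 0.438), and F11r, at 4.67, 5.63, 2.76 and 3.48 CPM (-0.64, p 0.0372, adjusted p 0.457). In both genes the eKO libraries lay below the controls, but the share of all genes without overlap was not counted in mesenchymal cells. That share was 43.9% to 53.2% in the endothelial classes. Epicardial cells had 0 of 10033 genes past the threshold by edgeR (0%), 1 by DESeq2 and 675 at an unadjusted p under 0.05, and 0 of 4 junction genes by either measure or by DESeq2. F11r in epicardial cells stood at 128, 127, 107 and 99.8 CPM, with a log2 change of -0.23 (adjusted p 0.790 by edgeR). Tjp1 there stood at 124, 152, 111 and 112 CPM, also at -0.23 (adjusted p 0.796). In both the groups did not overlap, a pattern whose share among all genes was not counted there. Jam3 was at -0.38 without overlap and Esam at 0.26 with overlap. Tjp1 in mesenchymal cells overlapped, at 0.01. Immune cells had 9 of 9005 genes (0.0999%) and 0 of 3 junction genes by either measure or by DESeq2.

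A wider list of 69 further junction genes, adherens, tight junction, scaffold, contact receptor, phosphatase and Rap1 pathway genes, put the 9 in their setting. Of its 68 genes in the matrices, 51, 58 and 54 were tested in coronary, mural and valve cells. In coronary endothelium 1 was up and 1 down (beside 1.26% of all genes called), in mural endocardium 1 up and 2 down (3.02%), and in valve endocardium 1 up and 1 down (0.38%), while DESeq2 called 2, 2 and 0. In each class 15 had an unadjusted p under 0.05, beside 12.9%, 21.5% and 12.4% of all genes. The median log2 change of the list was -0.14, -0.16 and -0.17 in these classes, and -0.15, -0.10, -0.13 and -0.15 in cardiomyocytes, mesenchymal, epicardial and immune cells. None of the list's 64, 59, 52 and 31 genes tested there passed by edgeR, DESeq2 called 0 in each, and 14, 10, 3 and 3 had an unadjusted p under 0.05, beside 10.7%, 10.4%, 6.73% and 4.18% of all genes. The list's median was thus negative in every class, over different numbers of genes, and a difference between classes was not tested.

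The 6 parts of the list had different medians in coronary endothelium: -0.01 for 11 adherens junction genes, -0.27 for 6 tight junction genes, -0.15 for 12 scaffold and polarity genes, -0.05 for 7 other contact receptors, -0.42 for 3 phosphatases and -0.15 for 12 Rap1 and CCM complex genes. In mural endocardium the medians were, in the same order, -0.21, -0.06, -0.16, -0.02, -0.38 and -0.21. In valve endocardium they were -0.19, 0.14, -0.23, -0.10, -0.43 and -0.12. The tight junction part thus had no common sign over the classes, with 6, 10 and 6 genes tested in coronary, mural and valve cells. In both endocardial classes the scaffold part had 13 genes tested, the phosphatases 4 and the Rap1 and CCM part 13. The phosphatases, 3 or 4 genes, also had negative medians in cardiomyocytes (-0.31), mesenchymal cells (-0.17), epicardial cells (-0.06) and immune cells (-0.62).

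**Figure D4:**
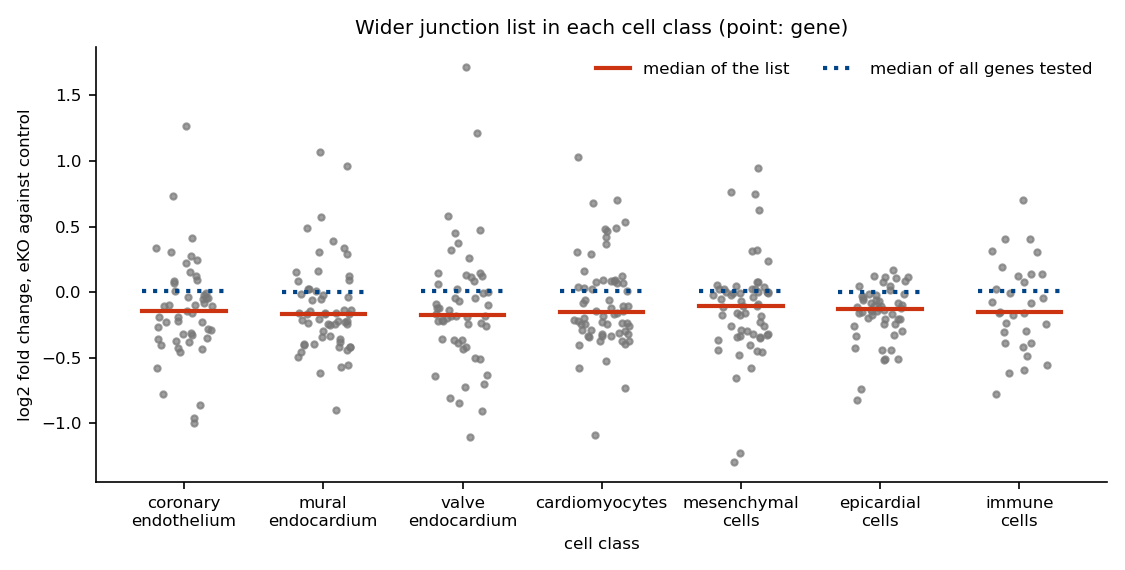
Log2 fold change of eKO against control (vertical axis) for each gene of the wider junction list (points) in 7 cell classes (horizontal axis), with a red line at the list's median and a dotted blue line at the median of all genes tested. The list's medians lie between -0.17 and -0.10 in every class.

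Ptprk, a receptor phosphatase that binds its like on the next cell, was the 1 gene of the list called in all 3 endothelial classes. It stood at 118, 151, 69.6 and 58.1 CPM in coronary endothelium, at 223, 238, 125 and 113 CPM in mural endocardium and at 183, 172, 88.6 and 95.9 CPM in valve endocardium. In each class both eKO libraries lay far below both controls. Its log2 change was -0.99 (SE 0.161, adjusted p 0.00873), -0.90 (SE 0.125, adjusted p 0.00456) and -0.91 (SE 0.151, adjusted p 0.0374). The coronary call was lost without control replicate 1 (-1.17, adjusted p 0.221) or control replicate 2 (-0.82, adjusted p 0.176). In the valve, DESeq2 gave -0.89 with an adjusted p of 0.0588, and 10 of 14 alternatives were past the threshold, with adjusted p between 0.000152 and 0.182. In cardiomyocytes Ptprk stood at 340.2, 362, 289.9 and 258 CPM, with a log2 change of -0.24 (adjusted p 0.477). The difference between classes in its change was 0.11 for mural against coronary endothelium (adjusted p 0.757) and 0.07 for valve against coronary endothelium (adjusted p 0.966).

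Lsr, a receptor of tricellular tight junctions, stood at 7.19, 7.61, 17.4 and 12.4 CPM in mural endocardium, both eKO libraries above both controls. It rose by 1.07 on the log2 scale (SE 0.229, adjusted p 0.0353), a call lost without control replicate 1 (1.02, adjusted p 0.127), control replicate 2 (1.14, adjusted p 0.0519) or eKO replicate 1 (0.82, adjusted p 0.073), with mixed cells kept (1.0525, adjusted p 0.0881) and with classes from clusters (0.92, adjusted p 0.0577). Cldn11, a claudin, stood at 33.7, 27.3, 67.4 and 70.6 CPM in valve endocardium and rose by 1.21 (SE 0.202, adjusted p 0.0374). That call was lost without control replicate 2 (1.07, adjusted p 0.0669), by DESeq2 (1.23, adjusted p 0.0588), with mixed cells kept (1.19, adjusted p 0.0923) and with double the endothelial minimum (1.22, adjusted p 0.127).

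Cdh11, a cadherin, was the gene called up in coronary endothelium, at 24.4, 13.96, 42.9 and 48.0 CPM there. It stood at 1267, 1136, 1006 and 877 CPM in mural endocardium. Its means were 1072 CPM in mural endocardium, 984 in epicardial cells, 416 in valve endocardium and 338 in mesenchymal cells. Both eKO libraries lay above both controls in the coronary gate, and the log2 change was 1.27 (SE 0.218, adjusted p 0.012). It was lost without control replicate 1 (1.78, adjusted p 0.202) or control replicate 2 (0.97, adjusted p 0.123), and with mixed cells kept (1.12, adjusted p 0.158). The summed mural endocardium list in the coronary gate, 53.7, 35.1, 84.6 and 91.1 CPM, had the same order of groups; its 4 genes were all detected except Cytl1 in control replicate 2, and Npr3 or Tmem100 was the most abundant. In the coronary cells with no UMI of that list the log2 change of Cdh11 was 0.45 (adjusted p 0.602), and in the coronary class taken from clusters it was 0.39 (adjusted p 0.557).

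**Figure D5:**
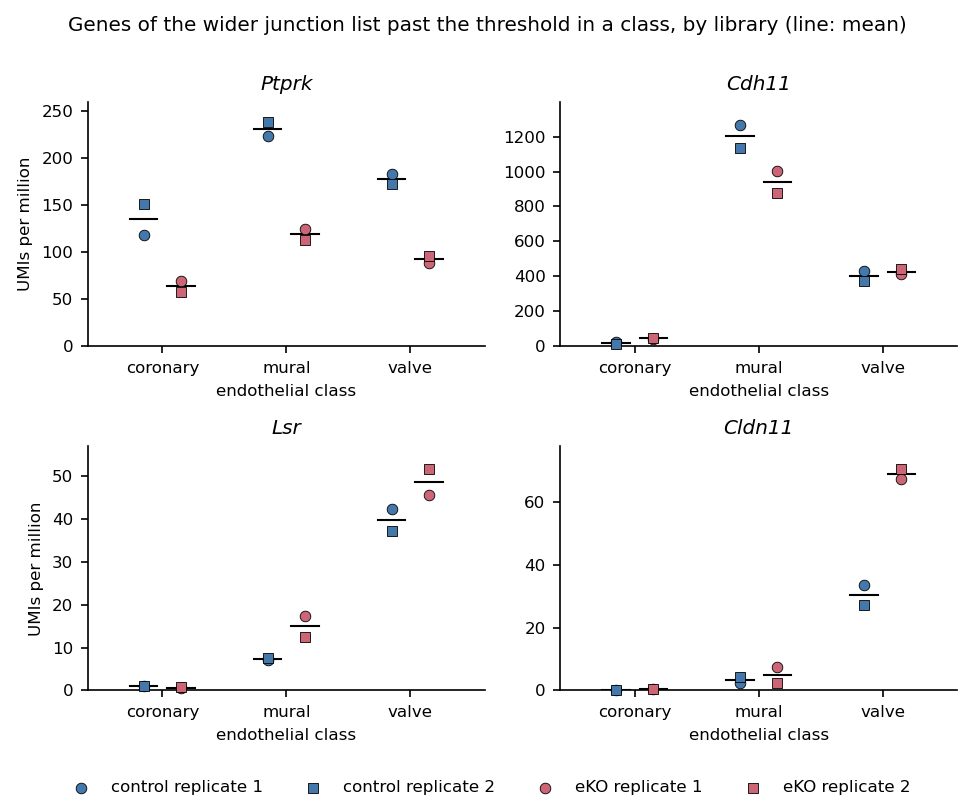
Level in CPM (vertical axis) of 4 genes of the wider junction list past the threshold in an endothelial class (horizontal axis), 1 point for each library, controls in blue, eKO in red, and a line at the mean of a group. Ptprk in mural endocardium lies at 223 and 238 in the controls and at 125 and 113 in the eKO libraries.

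The genes most like each junction gene over 28 sums, 7 classes in each of 4 libraries, were read from 9733 genes, or 9734 for Ocln, by Pearson's r of log2 CPM plus 1. The points share libraries and gates, so r is a description of the pattern over classes. Cdh5 was closest to Ctla2a (r 0.989) and Egfl7 (r 0.986), both markers of the endothelial gate, and Cldn5 to Sox17 (r 0.986) and Pcdh1 (r 0.960). Pecam1 was closest to Icam2 (r 0.988) and Gimap5 (r 0.982), Esam to Cav1 (r 0.966) and Adgrf5 (r 0.964), and Tjp1 to Col4a2 (r 0.973) and Cavin1 (r 0.971). Jam2 was closest to Ptprb (r 0.961) and Ptprm (r 0.952), both receptor phosphatases of the wider list. Jam3 was closest to Gpx8 and Lzts2 (r 0.952 each), F11r to Tes (r 0.941) and Gdpd5 (r 0.924), and Ocln, with few counts, to Tspan4 (r 0.901) and Piezo1 (r 0.883).

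In build GRCm38 the junction genes lie apart from each other. Cldn5 (ENSMUSG00000041378) spans 18776847 to 18778262 on the plus strand of chromosome 16, the chromosome that also holds Jam2 (ENSMUSG00000053062), at 84774123 to 84825928 on the plus strand. Esam (ENSMUSG00000001946), at 37528078 to 37538319 on the plus strand, and Jam3 (ENSMUSG00000031990), at 27097384 to 27155421 on the minus strand, lie on chromosome 9, as does Ets1 (ENSMUSG00000032035), at 32636221 to 32757820 on the plus strand. Cdh5 (ENSMUSG00000031871) lies on chromosome 8 at 104101625 to 104144511, and F11r (ENSMUSG00000038235) on chromosome 1 at 171437535 to 171464603, both on the plus strand. On the minus strand lie Pecam1 (ENSMUSG00000020717), chromosome 11 at 106654217 to 106750628, Tjp1 (ENSMUSG00000030516), chromosome 7 at 65296165 to 65527781, and Ocln (ENSMUSG00000021638), chromosome 13 at 100496507 to 100552718. A counted gene on the opposite strand overlaps Cdh5 (Gm29682, 63 UMIs in coronary endothelium) and Jam3 (Gm48796, 18 UMIs).

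Promoter windows of 300.0 bases from RefSeq (GRCm38.p6) were matched for 4 of the 9 genes, Cldn5, Tjp1, Ocln and F11r. They were searched on both strands for GGAA, the core of ETS family motifs, which 96% of 32851 promoters hold, and for CCGGAA and CAGGAA, which contain it and are held by 14.9% and 30.6%. GGAA was found 0 times in the window of Cldn5, 3 times in that of Tjp1, 4 times in that of F11r and 2 times in each of 2 windows of Ocln, 1 of which holds CCGGAA. The windows of Cldn5, the gene that differed most in level between the classes, and of F11r, with the most matches, are shown, in lower case with GGAA or its reverse complement TTCC in capitals. Both are read on the plus strand, at chr16:18776597-18776896 and chr1:171437311-171437610. A match is a run of letters and was not tested as a binding site.
Cldn5: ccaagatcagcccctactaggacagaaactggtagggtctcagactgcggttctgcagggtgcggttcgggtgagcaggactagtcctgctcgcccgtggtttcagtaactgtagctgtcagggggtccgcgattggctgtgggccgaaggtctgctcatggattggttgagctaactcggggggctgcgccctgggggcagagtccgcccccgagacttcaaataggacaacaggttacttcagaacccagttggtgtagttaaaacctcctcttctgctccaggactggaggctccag
F11r: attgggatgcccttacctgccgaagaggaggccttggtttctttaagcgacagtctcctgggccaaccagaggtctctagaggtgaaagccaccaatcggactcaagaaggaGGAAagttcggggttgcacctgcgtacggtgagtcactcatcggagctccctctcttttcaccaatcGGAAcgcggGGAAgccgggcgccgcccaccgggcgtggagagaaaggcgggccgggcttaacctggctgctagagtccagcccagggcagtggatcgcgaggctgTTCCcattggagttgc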

How the data were processed

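Single cells of 4 pooled ventricle libraries were measured. The authors ran Cell Ranger 7.1.0 on mm10 and deposited filtered matrices of UMI counts. A cell passed the filter with between 200 and 7000 genes detected and with limits on the source of its UMIs. These were no more than 2% from hemoglobin, 35% from ribosomal protein and 20% from mitochondrial genes. The filter kept 11340, 7235, 9243 and 13851 cells in the 4 libraries. Cells in a gate or cluster also had 1000 UMIs or more. Gates used summed UMIs of marker lists per 10000 UMIs of a cell. Endothelial cells had at least 20 of the list Egfl7, Ecscr, Flt1, Cd93, Emcn, Ctla2a, Eng, Ramp2 and Tie1, and cells with 100 or more of the cardiomyocyte list, 50 or more of the mesenchymal list or 10 or more of the immune or epicardial list were removed as mixed. No other doublet call was made. Coronary cells had at least 20 of the list Fabp4, Cd36, Gpihbp1, Aplnr, Tcf15, Meox2, Kcne3 and Rgcc. Endocardial cells had under 10 of it and at least 3 UMIs of the mural list (Npr3, Adgrg6, Cytl1, Tmem100) or the valve list (Nfatc1, Prox1, Hey2, Wnt4, Wnt9b), whichever was larger. Endothelial cells that met neither rule, 1115 in all, were left out. They numbered 189, 119, 186 and 621 in the 4 libraries, the most in eKO replicate 2, and their part in the results was not tested. Other classes had under 10 of the endothelial list and at least 150 of the cardiomyocyte, 40 of the mesenchymal, 14 of the epicardial or 28 of the immune list.

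UMIs were summed per gate and library and tested with edgeR 4.0.16 (TMM, filterByExpr, quasi-likelihood test, Benjamini-Hochberg over all genes tested, threshold 0.05) in R 4.3.3. Levels of 2 classes were compared in fits with library and class as terms. Differences in change between classes were fitted with library, class and class by genotype as terms. Shares of cells are expected shares at 2000 UMIs per cell, over cells with at least that number, with exact binomial intervals that cover counting error only. The alternative depth was 1000 UMIs per cell. Among the alternative values of the junction genes' shares, 106 moved and 2 stayed the same, so the shares printed hold for 2000 UMIs only. Counts, gates and shares were computed with pandas 2.3.3, scipy 1.17.1 and numpy 2.4.6 under Python 3.11.15, and plots drawn with matplotlib 3.10.9. Genes named are the 9 junction genes, Ets1, up to 8 genes of the wider junction list with the smallest p among those past the threshold in an endothelial class, and for each junction gene the 2 genes of highest Pearson correlation among those of at least 20 CPM in a gate; 1 gene of the wider list that met this rule is not reported here. The members and lists were chosen with earlier results of these data known.

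Alternatives were total count scaling, DESeq2 1.42.0, no filter on low counts, a replicate block, each library left out, a stricter filter on cells (1000 genes or more, mitochondrial UMIs no more than 10%), mixed cells kept, the endothelial minimum doubled and divided by 2, classes from clusters, coronary cells without arterial UMIs (Gja5, Gja4) and mural cells without cycling UMIs (Top2a, Mki67). Chosen after the data were seen were cells of at least 3000 UMIs, coronary cells without a UMI of the mural endocardium list, and the alternatives for Ets1, for the genes of the wider list, for levels and for classes outside the endothelium.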

Additional observations from a re-analysis of the deposited data

Results flagged for a closer look

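The change of Cdh11, a cadherin of the wider junction list, differed between endothelial classes by the test of the difference itself, which is what singled it out. The difference in log2 change of eKO against control was -1.54 for mural endocardium against coronary endothelium (SE 0.185, adjusted p 0.00014) and -1.14 for valve endocardium against coronary endothelium (SE 0.176, adjusted p 0.00228). Both differences hold the same coronary values, which were 24.4, 13.96, 42.9 and 48.0 CPM in control replicates 1 and 2 and eKO replicates 1 and 2. In classes taken from clusters the differences were -0.68 (adjusted p 0.111) and -0.41 (adjusted p 0.603), and without eKO replicate 2 the valve difference was -1.09 (adjusted p 0.203). Over the fits that left out 1 library they ran from -2.02 to -1.31 and from -1.54 to -0.94. The 4 genes of the mural endocardium list, with Npr3 the most abundant in mural endocardium, summed to 53.7, 35.1, 84.6 and 91.1 CPM in the coronary gate, and without the coronary cells that held a UMI of that list the coronary log2 change of Cdh11 was 0.45 (adjusted p 0.602).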

How the results depend on the processing

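Of 388 alternative values of the junction genes' log2 changes in the 3 endothelial classes, 362 kept their direction and side of the threshold, 24 changed sign (smallest adjusted p 0.58) and 2 passed the threshold. The number of junction genes changed was 0 to 1 over the fits that left out 1 library in coronary endothelium and in valve endocardium, 0 to 3 outside the endothelium and 0 to 1 for the difference in change between valve and coronary endothelium; it was 0 in every other alternative and in mural endocardium. Fits without 1 library leave a group with a lone library, assumed to vary like the others.

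The genes changed in coronary endothelium numbered 144, and 82 by DESeq2, 365 with no filter on low counts, 286 with the replicate block, 30 with mixed cells kept and 2 to 798 without 1 library. In mural endocardium they numbered 393, and 1189 with no filter, 1101 with the replicate block, 166 with mixed cells kept and 225 to 1018 without 1 library. In valve endocardium they numbered 39, and 317 with no filter, 126 with the replicate block, 63 with the stricter cell filter, 14 with mixed cells kept, 15 with double the endothelial minimum, 23 with classes from clusters and 81 to 295 without 1 library. The replicate block pairs libraries that, by the labels, share only a number; the residual correlations of libraries with the same number were -0.088, 0.009 and -0.099 in the 3 classes. The cause of these shifts was not tested.

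Changes of sign in coronary endothelium were 0.0012 without arterial cells and 0.016 without cells of the mural endocardium list for Pecam1, -0.0085 with total count scaling for Esam, -0.23 with double the endothelial minimum for Jam2, and for Jam3 0.053 with mixed cells kept, 0.41 with double the minimum, 0.069 with clusters and 0.041 without arterial cells. In valve endocardium they were 0.39 with double the minimum for Cldn5, 0.18 with clusters for Jam2, -0.0096 with total count scaling and -0.053 with double the minimum for Jam3, 0.046 with clusters for F11r, -0.11 with double the minimum and -0.019 with clusters for Cdh11, and -0.012 with double the minimum for Lsr. The log2 level of Jam3 was 0.0598 with total count scaling and 0.034 with clusters for mural against coronary endothelium, and 0.15 and 0.14 for valve against coronary endothelium. The fits that left out 1 library crossed 0 for Pecam1 (-0.099 to 0.0198) and Jam3 (-0.22 to 0.087) in coronary endothelium, for Cldn5 (-1.06 to 0.38), Esam (-0.0031 to 0.19) and Cldn11 (-0.39 to 1.17) in mural endocardium, for Jam2 (-0.14 to 0.078), Jam3 (-0.17 to 0.29) and F11r (-0.18 to 0.0602) in valve endocardium, and for the level of Jam3 in valve against coronary endothelium (-0.16 to 0.054). The cause was not tested. Depth limits Ocln, with 26 to 226 UMIs in an endothelial class, and Cldn5 in mural endocardium.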
